A study of Mus musculus with 6 samples.

Results

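Transcripts of 10 genes that mark endothelial cells, the cells that line blood vessels and the inside of the heart, were compared between male mouse embryos with and without a mutation of *Smchd1*. The genes were chosen by symbol as *Kdr*, *Flt1*, *Tek*, *Tie1*, *Cdh5*, *Pecam1*, *Eng*, *Emcn*, *Esam* and *Cldn5*, and each was found at 1 of the 24207 loci of the authors' table. The RNA-seq libraries came from 6 embryos dissected at embryonic day 9.5 (E9.5), 3 *Smchd1*+/+ (wildtype) and 3 *Smchd1*MommeD1/MommeD1 (mutant, homozygous for the chemically induced mutation MommeD1). All were whole embryos from matings between heterozygous parents. Per the labels, the strain was C57Bl6/J x FVB/n, whereas the study's text describes a backcross to another strain. *Smchd1* encodes a chromatin protein that takes part in keeping genes silent.

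Levels are given in FPKM, the fragments mapped to a gene scaled to its transcript length and to all mapped fragments, so that levels of different genes can be compared. Each genotype has a single FPKM value at a locus, made by the authors from its 3 embryos together. The spread between embryos is therefore not given here, no test between genotypes was made, and the depth is unknown. Ratios are log2 of mutant over wildtype after 0.1 FPKM was added to each value. A ratio is counted as higher or lower from 1.5-fold upwards, and all counts cover the 12463 loci whose FPKM averaged 1 or more over both genotypes.

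As a check on the genotypes, *Smchd1* was at 2.12 FPKM in mutants and 34.0 FPKM in wildtypes, a log2 ratio of -3.94. Markers of several tissues of the embryo were present in both genotypes, among them *Sox2* of the neural tube (47.1 FPKM in mutants, 43.6 FPKM in wildtypes) and *Myl7* of the heart (317 and 425 FPKM). The embryonic globin *Hbb-y*, a marker of primitive red cells, was at 4191 FPKM in mutants and 1787 FPKM in wildtypes, and *Hba-x*, its alpha-like partner, at 4602 and 2274 FPKM. Of the sex-linked genes checked, *Xist* was under 0.01 FPKM in both genotypes. The Y-linked *Ddx3y* was at 8.75 FPKM in mutants and 9.81 FPKM in wildtypes, and *Eif2s3y* at 14.3 and 21.1 FPKM. *Uty* was at 5.17 and 6.37 FPKM, and *Kdm5d* at 5.62 and 5.46 FPKM.

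Endothelial cells arise from mesoderm shortly before the heart begins to beat. Vascular endothelial growth factor (VEGF) signals to them through receptor tyrosine kinases, and angiopoietins through the Tie receptors, to make vessels sprout, branch and become stable. Their contacts are held together by adherens and tight junction proteins, and factors of the ETS family drive many of the genes that set the cells apart.

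None of the 10 endothelial genes differed by 1.5-fold or more between the genotypes. Over all loci, 3.51% were at least that much higher in mutant embryos and 1.47% at least that much lower. The log2 ratios ran from -0.36 for *Tek* to 0.31 for *Pecam1*, with a median of 0.013 beside -0.0076 over all loci. The sign of this small median was negative (-0.0030) once both genotypes were rescaled to the same total over named loci of 200 bp or more. Of the 10 genes, 5 were higher and 5 lower in mutant embryos, where 48.2% of all loci were higher by any amount. Within 1.1-fold lay 4 of the 10 genes and 57.4% of all loci. Added together, the 10 genes came to 122 FPKM in mutants and 119 FPKM in wildtypes, a difference of 1.97%. In RNA from whole embryos, a change in the number of endothelial cells and a change in RNA per cell cannot be told apart.

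**Figure D1:**
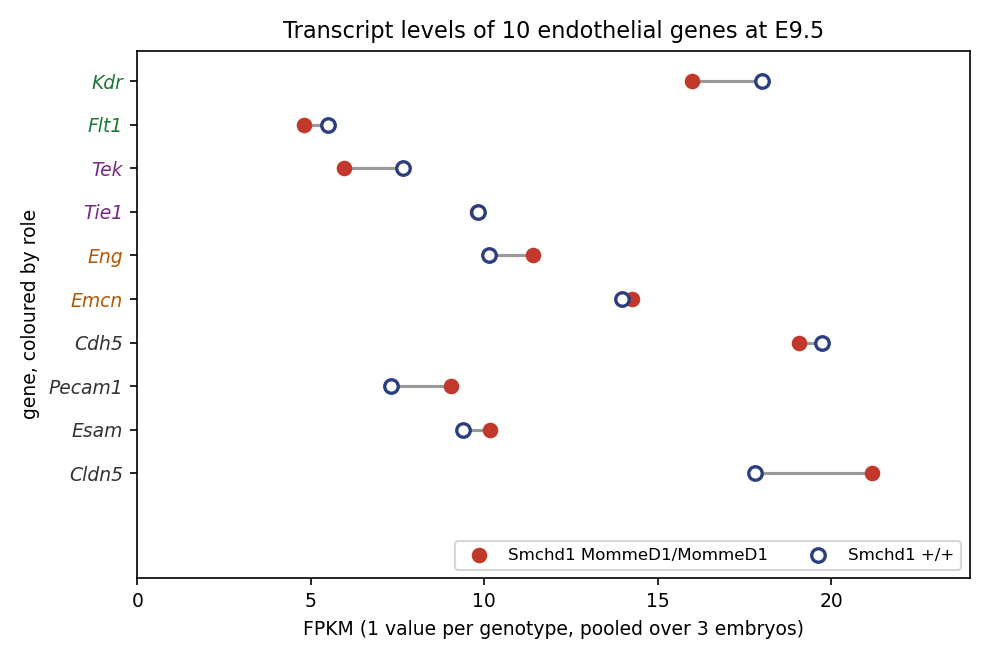
FPKM of the 10 endothelial genes in mutant (filled red) and wildtype (open blue) embryos, 1 pooled value per genotype with no error bar, and symbols coloured by role. The values run from 4.80 FPKM for *Flt1* to 21.2 FPKM for *Cldn5*, both in mutant embryos, and for *Tie1* the mutant point is hidden behind the wildtype point.

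The main VEGF receptor, *Kdr*, which passes on most of the growth signal, was among the more abundant of the 10 genes. It lies on the minus strand of chromosome 5 of mm10 from 75933270 to 75978428. *Kdr* was at 15.98 FPKM in mutants and 18.0 FPKM in wildtypes, a log2 ratio of -0.17. *Flt1*, which binds VEGF more tightly than *Kdr* does but signals weakly and so acts in part as a decoy, lies on the same strand of that chromosome from 147561604 to 147725988. *Flt1* was at 4.80 FPKM in mutants and 5.48 FPKM in wildtypes, a log2 ratio of -0.19, and had the lowest level of the 10 genes in both genotypes. Both receptors were thus lower in mutant embryos by nearly the same proportion. The level of *Flt1* relative to *Kdr* was 0.300 in mutant and 0.304 in wildtype embryos. A soluble form of *Flt1* made by early polyadenylation is known, and the single value of the locus does not separate it from the membrane form.

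The ratios of the Tie receptors were less alike than those of the VEGF receptors. *Tek*, the receptor for angiopoietins also called Tie2, lies on the plus strand of chromosome 4 from 94739300 to 94874939. It was at 5.96 FPKM in mutants and 7.66 FPKM in wildtypes. Its log2 ratio of -0.36 was the lowest of the 10 genes and lay at percentile 4.12 of all loci. *Tie1*, a related receptor that modulates signalling by *Tek*, lies on the minus strand of the same chromosome from 118471191 to 118489849. *Tie1* was at 9.80 FPKM in mutants and 9.83 FPKM in wildtypes, a log2 ratio of -0.0036, whose sign changed when the values were centred on the median locus or rescaled to the same total over all loci, but not when rescaled over named loci of 200 bp or more (-0.019). The level of *Tie1* relative to *Tek* was 1.65 in mutant and 1.28 in wildtype embryos, which is a log2 difference of 0.36. Whether this difference exceeds the spread between embryos was not tested.

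RefSeq sequences around a start of transcription (GRCm38.p6, the patched form of the same build) were found for 7 of the 10 genes. Each window holds 250 bases before and 50 bases after that start. For *Kdr*, *Flt1*, *Tek* and *Emcn* the start used lies inside the RefSeq limits of the gene and so is not its outermost one. They were searched on both strands for 2 forms of the core letters that ETS factors bind, and for a composite of a forkhead and an ETS site known from endothelial enhancers. The first form, CAGGAA, was found in 4 of the 7 windows, those of *Eng*, *Emcn*, *Tek* and *Tie1*, and in 30.6% of all 32851 windows of the table. The second form, CCGGAA, was found in the window of *Kdr* and in 14.9% of all windows. The composite, AACAGGAA, whose last letters are those of the first ETS form, was found in the window of *Emcn* and in 2.65% of all windows. The windows of both Tie receptors and of *Emcn* are shown 5′ to 3′ along the strand of the gene, the former as a receptor pair with unlike ratios and the latter for its composite match. Capitals mark the matches to the ETS letters, which in all of them lie on the opposite strand and so read as their reverse complement, and in *Emcn* also the 2 further letters of the composite. They start at bases 162 and 192 of the window of *Tek*, at base 42 of that of *Tie1* and at bases 78 and 184 of that of *Emcn*.
*Tek* (chr4:94739039-94739338, plus strand): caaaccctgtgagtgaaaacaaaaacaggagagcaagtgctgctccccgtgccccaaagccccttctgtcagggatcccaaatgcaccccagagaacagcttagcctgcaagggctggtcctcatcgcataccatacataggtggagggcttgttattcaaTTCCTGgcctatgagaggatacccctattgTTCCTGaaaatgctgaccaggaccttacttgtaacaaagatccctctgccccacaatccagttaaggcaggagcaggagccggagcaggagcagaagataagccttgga
*Tie1* (chr4:118489800-118490099, minus strand): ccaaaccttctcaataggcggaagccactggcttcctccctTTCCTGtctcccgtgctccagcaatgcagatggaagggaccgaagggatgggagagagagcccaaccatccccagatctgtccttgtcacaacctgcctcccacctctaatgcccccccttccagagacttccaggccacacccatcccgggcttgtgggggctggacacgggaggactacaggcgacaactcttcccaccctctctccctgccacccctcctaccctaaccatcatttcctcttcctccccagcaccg
*Emcn* (chr3:137340828-137341127, plus strand): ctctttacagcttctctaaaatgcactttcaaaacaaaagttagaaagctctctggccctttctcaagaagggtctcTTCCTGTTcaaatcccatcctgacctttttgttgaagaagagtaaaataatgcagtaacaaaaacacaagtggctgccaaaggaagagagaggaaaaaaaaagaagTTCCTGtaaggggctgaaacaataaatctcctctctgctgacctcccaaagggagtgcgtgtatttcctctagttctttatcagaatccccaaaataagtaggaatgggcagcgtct

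A GC box, TATA box and GATA site were searched in the same way, also on both strands. The GC box letters GGGCGG were found in the windows of *Kdr*, *Flt1* and *Cldn5* and in 35.7% of all windows. The TATA box letters TATAAA were found in the window of *Flt1* and in 13.6% of all windows. The letters of the GATA site, AGATAA, were found in the window of *Tek* and in 11.2% of all windows. *Flt1* had the highest GC content of the 7 windows with 70.7%, and *Emcn* the lowest with 41.0%, beside a median of 52.7% over all windows. These matches describe the sequence and do not show that a factor binds there.

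*Eng* and *Emcn* were slightly higher in mutant embryos. *Eng* encodes endoglin, a co-receptor for ligands of the transforming growth factor beta (TGF-beta) family. Its locus, as listed by the authors, is on the plus strand of chromosome 2 from 32646595 to 32694175. In RefSeq the gene ends at 32682669, so the listed locus runs past it, and it overlaps the listed locus of *Fpgs*. *Eng* was at 11.4 FPKM in mutants and 10.1 FPKM in wildtypes, a log2 ratio of 0.17. In GENCODE M21, 61 bp, or 1.51%, of the exonic bases of *Eng* are shared with *Fpgs* on the other strand. The study describes its RNA-seq libraries as nondirectional, so reads from the shared bases cannot be told apart by strand. No other gene of the 10 shared exonic bases with another annotated gene. *Emcn*, a sialomucin of the endothelial surface that is typical of veins and capillaries, lies on the plus strand of chromosome 3 from 137341078 to 137431069. It was at 14.3 FPKM in mutants and 14.0 FPKM in wildtypes, a log2 ratio of 0.029.

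Among the junction and adhesion genes, *Cdh5* was nearly level and the other three were higher in mutant embryos. *Cdh5* encodes VE-cadherin, the adherens junction protein that is often taken as the most specific endothelial marker, and lies on the plus strand of chromosome 8 from 104101622 to 104144502. It was at 19.1 FPKM in mutants and 19.7 FPKM in wildtypes, a log2 ratio of -0.050. *Pecam1* (CD31), an adhesion molecule at endothelial contacts that platelets and some white blood cells also carry, lies on the minus strand of chromosome 11 from 106654218 to 106715330. *Pecam1* was at 9.05 FPKM in mutants and 7.30 FPKM in wildtypes. Its log2 ratio of 0.31 was the highest of the 10 genes and lay at percentile 90.6 of all loci. *Esam*, an immunoglobulin-like adhesion molecule of endothelial cells and platelets, lies on the plus strand of chromosome 9 from 37528089 to 37538578. It was at 10.2 FPKM in mutants and 9.38 FPKM in wildtypes, a log2 ratio of 0.12. *Cldn5* encodes claudin-5, the main tight junction protein of brain endothelium, in a single exon of 1416 bp on the plus strand of chromosome 16 from 18776847 to 18778262. It was at 21.2 FPKM in mutants and 17.8 FPKM in wildtypes, a log2 ratio of 0.25.

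The genes grouped by role differed in direction by small amounts. The VEGF receptors together came to 20.8 FPKM in mutants and 23.5 FPKM in wildtypes (log2 ratio of the sums -0.18), and the Tie receptors to 15.8 and 17.5 FPKM (-0.15). *Eng* and *Emcn* together came to 25.7 FPKM in mutants and 24.1 FPKM in wildtypes (0.091), and the junction and adhesion genes to 59.5 and 54.2 FPKM (0.13). The scalings tried shift log2 ratios by at most 0.043, which is less than any of these 4 values, so they could not have changed a sign. The order of levels was kept for some genes and changed for others. *Cdh5*, *Kdr* and *Cldn5* held ranks 1 to 3 in wildtype embryos, whereas in mutant embryos *Cldn5* ranked 1, *Cdh5* ranked 2 and *Kdr* ranked 3. *Emcn*, *Eng* and *Flt1* kept ranks 4, 5 and 10 in both genotypes, while *Esam* changed places with *Tie1* and *Pecam1* with *Tek*. Without a spread between embryos, it cannot be said which neighbours in this order differ.

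Over all loci, 90% of log2 ratios lay between -0.32 and 0.47, and 9 of the 10 endothelial genes lay in that range, with *Tek* below it. The central 50% of loci lay between -0.12 and 0.11, and this range held 3 of the 10 genes, *Tie1*, *Emcn* and *Cdh5*. The median size of the log2 ratio, regardless of sign, was 0.17 for the 10 genes and 0.11 for all loci. In mean level the 10 genes were ordinary, from percentile 29.0 of all loci (*Flt1*) to percentile 65.6 (*Cldn5*). Among the 4557 loci with a mean level between these limits, 2% were at least 1.5-fold higher and 0.944% at least 1.5-fold lower in mutant embryos.

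**Figure D2:**
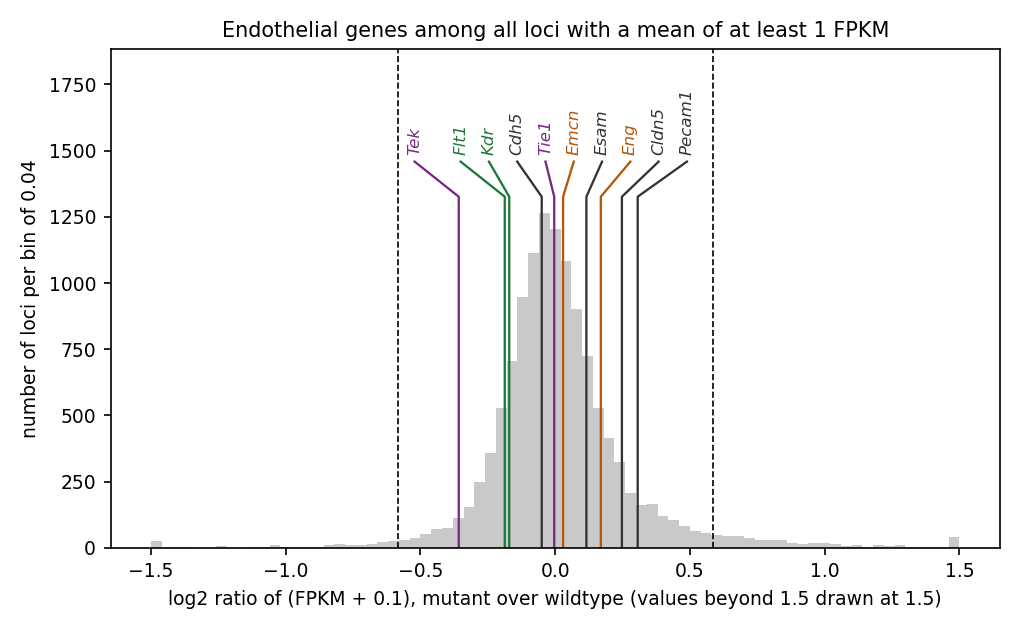
Histogram of the log2 ratio of mutant over wildtype for the 12463 loci counted, with the 10 endothelial genes as coloured lines by role and 1.5-fold as dashed lines. All 10 genes lie between the dashed lines, from *Tek* at -0.36 to *Pecam1* at 0.31.

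No growth factor or further receptor counted in the same pathways reached 1.5-fold. Over all loci, 3.51% were at least that much higher and 1.47% lower, so in lists this short such counts do not set the genes apart. Of 8 VEGF ligands and other VEGF receptors, 0 differed by 1.5-fold, and the median log2 ratio was -0.11. The most abundant were *Vegfb*, a ligand of *Flt1* (45.0 FPKM in mutants and 44.5 FPKM in wildtypes), and *Nrp2*, a VEGF and semaphorin co-receptor (23.1 and 24.8 FPKM). *Vegfa*, the ligand of both *Kdr* and *Flt1*, was picked out after its values were seen and was at 11.3 FPKM in mutants and 13.2 FPKM in wildtypes, a log2 ratio of -0.22. Of 13 genes of the angiopoietins and the endothelial TGF-beta pathway, 10 averaged 1 FPKM or more, 0 of these differed by 1.5-fold, and the median was 0.044. Here the most abundant were the receptor *Tgfbr1* (60.6 and 59.7 FPKM) and the inhibitory *Smad6* (10.5 and 10.01 FPKM). The *Tek* ligand *Angpt1*, likewise picked out afterwards, was at 4.07 FPKM in mutants and 4.75 FPKM in wildtypes, a log2 ratio of -0.22. The other angiopoietins did not share this direction. *Angpt2* was at 1.21 and 1.19 FPKM (log2 ratio 0.026), and *Angpt4*, under 1 FPKM in both genotypes, had a log2 ratio of 0.39.

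Of 18 endothelial transcription factors, 1 was at least 1.5-fold lower in mutant embryos and 0 were as much higher, beside 1.47% and 3.51% of all loci. The same shares are to be set beside the counts of each list below. The lower factor was *Etv2*, an ETS factor that acts early and briefly to turn mesoderm into endothelial and blood precursors. *Etv2* was at 1.05 FPKM in mutants and 2.84 FPKM in wildtypes, a log2 ratio of -1.35 at percentile 0.273 of all loci. Its level was low in both genotypes, and with 1 FPKM added to each value it still reached 1.5-fold. The most abundant factors of the list were *Ets2* (22.5 FPKM in mutants and 22.8 FPKM in wildtypes) and *Ets1* (19.2 and 22.0 FPKM). The ETS factors *Fli1* and *Erg*, which keep endothelial cells differentiated and were picked out after their values were seen, had log2 ratios of 0.16 and 0.064.

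Among 24 other endothelial surface and junction genes, 21 averaged 1 FPKM or more, and their median log2 ratio was 0.028. In mutant embryos 2 of them were at least 1.5-fold higher and 0 as much lower. *Robo4*, an endothelial receptor that stabilises vessels, was at 2.22 FPKM in mutants and 1.15 FPKM in wildtypes, a log2 ratio of 0.90. *Procr*, the endothelial protein C receptor, was at 1.33 and 0.760 FPKM, a log2 ratio of 0.73. Both lie low in expression, and with 1 FPKM added to each value neither reached 1.5-fold. The most abundant genes of this list were *Ramp2*, part of the adrenomedullin receptor (31.3 FPKM in mutants and 31.1 FPKM in wildtypes), and *Cd34*, a sialomucin of endothelial and blood stem cells (29.7 and 23.5 FPKM).

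Markers of kinds of endothelium were counted in the same way, beside 3.51% of all loci at least 1.5-fold higher and 1.47% as much lower. Of 11 arterial genes counted, 0 differed by 1.5-fold (median log2 ratio 0.056), and the most abundant were the ephrin ligand *Efnb2* (27.7 FPKM in mutants and 27.4 FPKM in wildtypes) and the Notch target *Hey1* (17.7 and 17.0 FPKM). Of 5 venous and lymphatic genes (median 0.14), *Pdpn* was past 1.5-fold, at 14.1 FPKM in mutants and 8.85 FPKM in wildtypes (log2 ratio 0.67). *Pdpn* marks lymphatic endothelium but is also made by many other cells. The vein regulator *Nr2f2* (48.8 and 44.4 FPKM) and *Ephb4*, the venous receptor for *Efnb2* (39.8 and 36.0 FPKM), were the most abundant of that list.

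Of 4 genes of sprouting endothelium, 0 differed by 1.5-fold (median 0.085). *Cxcr4*, a chemokine receptor counted also as arterial, was at 17.0 and 15.2 FPKM, and the peptide ligand *Apln* at 4.52 and 4.85 FPKM. Of 5 endocardium genes, 0 differed by 1.5-fold (median -0.10), with *Hapln1*, a matrix link protein (26.8 FPKM in mutants and 32.6 FPKM in wildtypes), and the semaphorin receptor *Plxnd1* (29.4 and 26.8 FPKM) most abundant.

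Of 7 genes of brain endothelium that were counted, 1 was at least 1.5-fold higher and the median was -0.063. That gene was *Spock2*, a matrix proteoglycan, which was at 3.66 FPKM in mutants and 2.31 FPKM in wildtypes (log2 ratio 0.64), and which also fell short of 1.5-fold with 1 FPKM added. The lipid transporter *Mfsd2a*, singled out afterwards because it passed 1.5-fold once the genotypes were rescaled to the same total over all loci, had a log2 ratio of 0.56. The glucose transporter *Slc2a1*, which at this stage is expressed far beyond the vessels, was at 209 FPKM in mutants and 294 FPKM in wildtypes, and the transporter *Abcg2*, which red cell precursors also make, at 21.8 and 26.8 FPKM. *Slco1c1* and *Abcb1a*, transporters of the mature blood-brain barrier, were under 0.1 FPKM in both genotypes.

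Taking these 9 vascular lists together, 87 genes other than the original 10 were counted. Of these, 4 (4.60%) were at least 1.5-fold higher and 1 (1.15%) at least 1.5-fold lower in mutant embryos, beside 3.51% and 1.47% of all loci. Their median log2 ratio was 0.015, and 46 were higher and 41 lower. Rescaled to the same total over named loci of 200 bp or more, 43 were higher and 44 lower, so these genes had no settled direction.

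**Figure D3:**
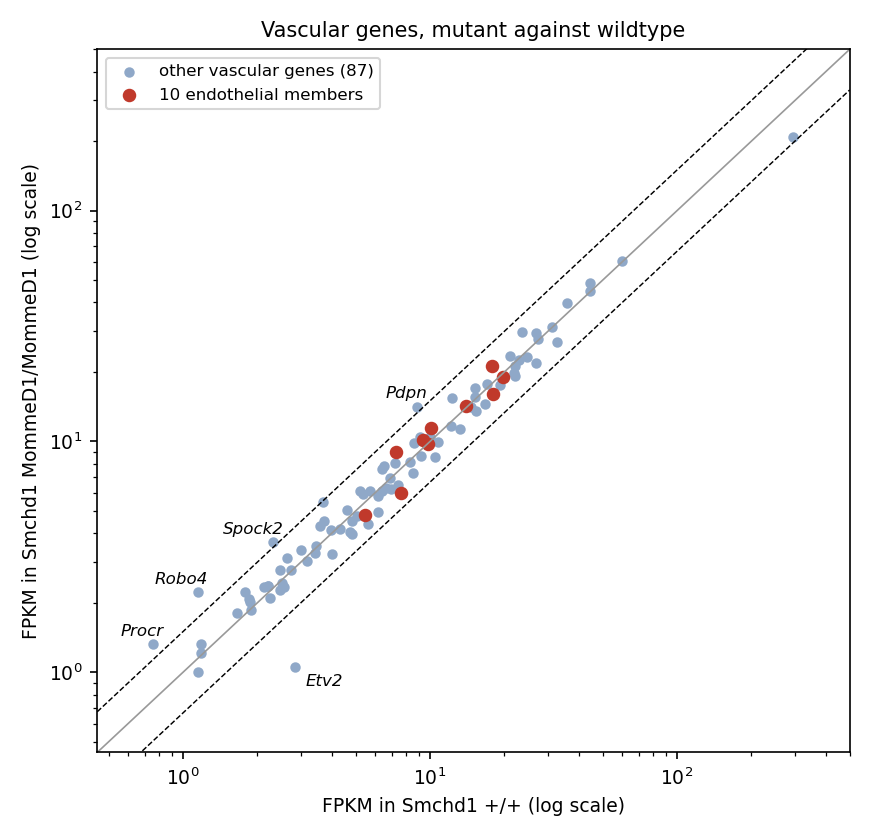
FPKM in mutant against wildtype embryos on log scales for the 10 endothelial genes (red) and 87 other vascular genes (blue), 1 pooled value per genotype, with equality as a grey line and 1.5-fold as dashed lines. All 10 red points lie between the dashed lines, as do most blue points. *Robo4*, *Procr*, *Spock2* and *Pdpn* lie above the upper dashed line and *Etv2* below the lower one.

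Cell types that share markers with endothelium, or sit beside it, were listed in the same way. Of 9 mural cell genes counted, which mark the pericytes and smooth muscle around vessels, 0 differed by 1.5-fold (median log2 ratio 0.060). *Acta2*, a smooth muscle actin that the early heart also makes, was at 98.2 FPKM in mutants and 132 FPKM in wildtypes, and *Tagln* at 39.2 and 42.3 FPKM. The mature smooth muscle gene *Myh11* was at 0.0891 and 0.111 FPKM.

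Blood cell genes had a higher median ratio than the 10 endothelial genes. Of 13 blood and haemogenic genes, 6 averaged 1 FPKM or more, with a median log2 ratio of 0.42. *Itga2b* (CD41) of megakaryocytes and early blood progenitors was at 1.601 FPKM in mutants and 0.759 FPKM in wildtypes (log2 ratio 0.99), and of the list it alone reached 1.5-fold, though not with 1 FPKM added to each value. *Kit*, a receptor of blood progenitors and germ cells, was at 7.34 and 9.25 FPKM, and *Klf1*, a transcription factor of red cells, at 6.47 and 4.31 FPKM. *Klf1* also reached 1.5-fold once the genotypes were rescaled to the same total over all loci. These 6 genes together came to 22.1 FPKM in mutants and 19.2 FPKM in wildtypes. The pan-leukocyte marker *Ptprc* was at 0.0964 FPKM in mutant embryos and is listed at 0 in wildtype embryos, and the macrophage receptor *Csf1r* was at 0.385 and 0.145 FPKM. *Pecam1*, *Esam* and *Cd34*, which some blood cells share with endothelium, had positive log2 ratios (0.31, 0.12 and 0.34). *Tek*, also found on blood stem cells, had a negative one (-0.36). These genes are examples and not a full list of those that blood and endothelium share. The part of blood cells in the values of these shared genes was not tested.

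Of 7 visceral endoderm genes, taken here whatever their level, 6 were lower and 1 was higher in mutant embryos by any amount. Of the 3 that averaged 1 FPKM or more, 2 were at least 1.5-fold lower and 1 as much higher, beside 1.47% and 3.51% of all loci. The median log2 ratio of these 3 was -0.87, with *Ttr* at -1.56, *Apoa1* at -0.87 and *Afp*, the higher one, at 0.85. The other 4 were under that average, although *Cubn* (0.157 FPKM in mutants, 1.37 FPKM in wildtypes) and *Apob* (0.346 and 1.52 FPKM) were above 1 FPKM in wildtype embryos. The part of extraembryonic tissue in the endothelial values was not tested. Of 14 housekeeping genes, 0 differed by 1.5-fold, with log2 ratios from -0.27 to 0.20 and a median of 0.056. The most abundant were *Eef1a1* (7042 FPKM in mutants and 6779 FPKM in wildtypes) and *Ppia* (3784 and 3948 FPKM).

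**Figure D4:**
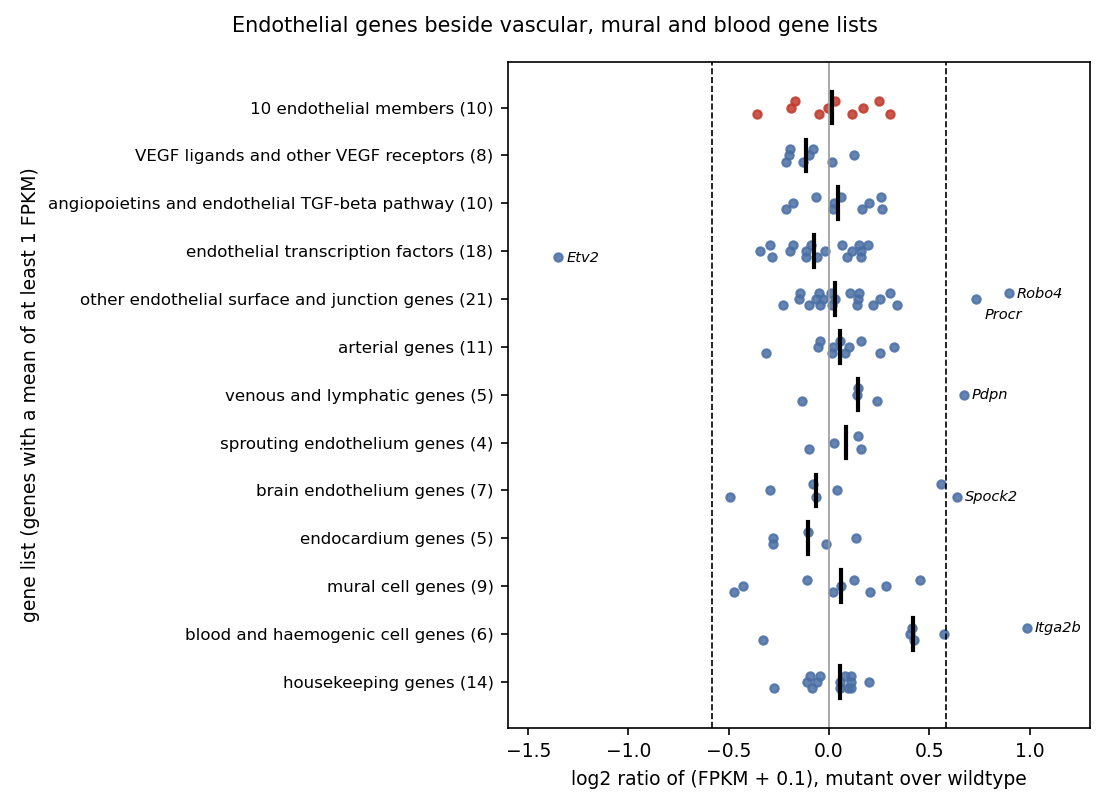
Log2 ratio of mutant over wildtype for each gene (point) of the 10 endothelial genes and of vascular, mural, blood and housekeeping lists, with list medians as black bars, 1.5-fold as dashed lines and the number of genes in brackets. The 10 endothelial genes (median 0.013) spread about 0, and the blood list lies furthest to the right (median 0.42).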

How the data were processed

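The 6 RNA-seq samples, 3 male E9.5 embryos of each genotype, were grouped by their labelled genotype. According to the submitters' processing notes, reads were aligned to mm10 with TopHat2 2.0.6 and Bowtie2 2.0.2, and Cufflinks and Cuffdiff 2.0.2 were run. The annotation release is not given in the sources used here. The authors deposited 1 FPKM value per genotype and locus. Which column is mutant follows the study's own copy of the table. The authors' fold changes, test statistics, p-values and q-values were not used.

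Log2 ratios were computed with 0.1 FPKM added. Counts took loci whose FPKM averaged 1 or more, and a fold of 1.5. Since unnamed loci and loci under 200 bp took up 36.8% of all FPKM in mutants and 39.4% in wildtypes, other scalings were tried. Depth is unknown, and no interval was computed. Starts were counted from 1. Symbols absent from the table were matched through RefSeq synonyms.

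The members and gene lists were chosen with earlier results of these data known. Named were all 10 members, and from each list the genes past 1.5-fold (up to 6) and the 2 most abundant. Some others were named after their values were seen. These were *Vegfa*, *Angpt1*, *Angpt2*, *Fli1*, *Erg*, *Mfsd2a*, the tissue check genes *Sox2* and *Myl7*, and the sex check genes. Also named in this way were *Angpt4*, *Slco1c1*, *Abcb1a*, *Myh11*, *Ptprc*, *Csf1r*, *Cubn* and *Apob*, which averaged under 1 FPKM. The result of 1 gene of the blood list is left out here. The steps were tested on simulated data. For the fold counts these held no noise, and the planted changes exceeded 1.5-fold at well expressed loci. That test does not cover loci of low level or the spread between embryos. Python 3.11.15, numpy 2.4.6, pandas 2.3.3 and matplotlib 3.10.9 were used.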

Additional observations from a re-analysis of the deposited data

How the results depend on the processing

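No gene of the 10 was 1.5-fold higher or lower under the other pseudocounts, scalings and filters tried or at a fold of 2. At a smaller fold, a log2 ratio of 0.32, 1 gene was lower (*Tek*) and 0 were higher, beside 4.98% and 8.84% of all loci. A smaller fold can only add to such counts and a larger one only take from them, so the counts of 0 at a fold of 2 were fixed in advance. The median log2 ratio ran from -0.0030 to 0.056 over 8 alternatives, so its sign is not settled. It lay at the lower end when both genotypes were rescaled to the same total over named loci of 200 bp or more, and at the upper end when rescaled to the same total over all loci. All 50 alternative values of single genes lay within 0.1 of the reported log2 ratio, and *Tie1* alone changed sign, in 2 of 5. These alternatives could move the values only a little. Each scaling shifts every gene by nearly the same small amount, and a pseudocount changes ratios little at these levels. The filters tried kept all 10 genes and leave ratios as they are, so they could change neither the median nor the counts of the 10. The background of loci with a symbol was chosen after seeing the data and gave 3.20% higher and 1.08% lower. No paired analysis was possible because 1 value per genotype was used, and for the same reason no embryo could be left out in turn. The depth and the spread between embryos limit every ratio given here, and neither is known.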
